A study of Homo sapiens with 3 samples.

Results

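The genes described here are 9 genes of trans-synaptic adhesion: the neurexins NRXN2 and NRXN3, the neuroligins NLGN1, NLGN2 and NLGN3, and the leucine-rich repeat transmembrane genes LRRTM1, LRRTM2, LRRTM3 and LRRTM4. Their accessible regions were taken from an ATAC-seq list of neurons derived from the KOLF2.1J-hNGN2 line. KOLF2.1J is a reference line of human induced pluripotent stem cells, NGN2 is a proneural transcription factor whose expression turns such cells into neurons, and the cells were collected on day 14 of differentiation. A region was assigned to a gene when a summit, the point of highest signal, lay within the RefSeq gene body or within 50 kb of its outer ends. This gave 110 of the 65234 distinct regions of the list, with 232 summits, for 9 of 20037 protein-coding genes. The study sought regulatory elements of MAPT in several chromatin assays, and the samples analysed here form 1 group of 3 biological replicates, with no untreated or undifferentiated group. The authors combined the replicates into 1 list, so no value per replicate, standard deviation or test between groups can be given. The cells derive from 1 line, and the promoter that drives NGN2 is not given in the sources used here.

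Neurexins are presynaptic membrane proteins that bind neuroligins, LRRTM proteins and several secreted partners across the synaptic cleft, and this contact helps to specify excitatory and inhibitory synapses. Each neurexin gene makes a long alpha form from an upstream promoter and a shorter beta form from a promoter deep inside the gene, so an accessible region inside the gene can mark a start of its own. Neuroligins and LRRTM proteins lie on the postsynaptic side, where neuroligin 2 is best known from inhibitory synapses, neuroligin 1 and the LRRTM proteins from excitatory synapses, and neuroligin 3 from both. In ATAC-seq the Tn5 transposase inserts adapters into accessible DNA, and regions that are open in more cells or more widely open collect more tags. A bulk list cannot tell an increase in the share of open cells from an increase in openness per cell.

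A start is called closed here where no region of the list had its main summit within 1 kb of it. That call does not show closed chromatin. Sequences before 5 starts of NRXN3 and LRRTM3 are printed first because they contrast accessible and closed starts of the same gene. They are the 250 bases 5′ of each start on the plus strand (RefSeq, GRCh38.p14), with every CpG dinucleotide in capitals, and the name gives the distance of the start from the lower-coordinate end of the gene.
NRXN3 start at 0 kb, accessible, chr14:78170123-78170372: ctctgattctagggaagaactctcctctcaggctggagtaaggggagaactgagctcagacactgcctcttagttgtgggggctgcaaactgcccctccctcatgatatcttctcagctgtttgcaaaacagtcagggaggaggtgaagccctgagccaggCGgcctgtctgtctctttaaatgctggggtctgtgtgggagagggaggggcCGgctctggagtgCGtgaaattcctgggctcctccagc
NRXN3 start at 233 kb, closed, chr14:78403469-78403718: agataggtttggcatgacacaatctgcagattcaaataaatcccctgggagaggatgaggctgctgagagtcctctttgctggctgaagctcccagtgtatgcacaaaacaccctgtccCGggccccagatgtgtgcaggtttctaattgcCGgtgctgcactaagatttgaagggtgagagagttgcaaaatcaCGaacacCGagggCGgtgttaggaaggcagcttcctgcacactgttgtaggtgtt
NRXN3 start at 1109 kb, accessible, chr14:79279130-79279379: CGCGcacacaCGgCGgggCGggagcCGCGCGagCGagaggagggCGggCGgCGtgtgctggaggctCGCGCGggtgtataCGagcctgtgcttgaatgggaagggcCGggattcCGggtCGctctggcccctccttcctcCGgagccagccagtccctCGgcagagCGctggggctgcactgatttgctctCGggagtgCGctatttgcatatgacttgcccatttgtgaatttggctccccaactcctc
LRRTM3 start at 0 kb, accessible, chr10:66925786-66926035: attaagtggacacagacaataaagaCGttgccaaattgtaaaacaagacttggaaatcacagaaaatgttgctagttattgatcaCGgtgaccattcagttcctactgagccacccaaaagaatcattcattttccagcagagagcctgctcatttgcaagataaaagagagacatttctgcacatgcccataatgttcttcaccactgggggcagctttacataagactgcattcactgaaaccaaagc
LRRTM3 start at 86.2 kb, closed, chr10:67012016-67012265: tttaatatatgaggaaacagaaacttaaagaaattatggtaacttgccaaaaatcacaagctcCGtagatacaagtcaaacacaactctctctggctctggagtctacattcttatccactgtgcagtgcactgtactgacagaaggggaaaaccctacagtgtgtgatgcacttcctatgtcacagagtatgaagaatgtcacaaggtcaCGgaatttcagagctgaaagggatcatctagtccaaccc
CpG dinucleotides numbered 3, 5 and 24 in the NRXN3 sequences, in the order printed, and 2 in each LRRTM3 sequence. The inner NRXN3 start at 1109 kb was thus the CpG-rich one, whereas the outermost NRXN3 start and both LRRTM3 starts held few CpG dinucleotides.

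Values are given on 3 scales. Fold enrichment is the authors' ratio of the tags at a summit to the local background. The tag count behind each summit was recovered from the fold enrichment and the −log10 p, and is given with its exact Poisson 95% interval. A percentile places a value among all 65234 regions, or, where stated, among the 13092 regions of the list within 1 kb of any RefSeq start. Over all summits of the list the tag counts ran from 58 to 3783 (median 189), and the depth of each replicate is unknown. Intervals cover counting error only, because the libraries were amplified by PCR with no molecular identifiers mentioned in the labels.

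The labelled cell type was compared with marker genes by the same measure, a region summit within 1 kb of a RefSeq start, or of an outer end for genes with no start in the table. All 8 neuronal genes (MAP2, TUBB3, RBFOX3, DCX, STMN2, SNAP25, SYT1 and SYN1) had an accessible start, with fold enrichments from 4.77 at TUBB3 to 10.8 at SYN1. RBFOX3 was accessible at 2 of its 12 listed starts (159 tags), and STMN2 and SNAP25, with no listed start, were called by outer ends. By this measure 68.4% of all protein-coding genes had an accessible start. Of the vesicular glutamate transporters SLC17A6 had one (4.27) and SLC17A7 did not. Of the GABAergic genes GAD2 (5.08) and SLC32A1 (2.48) had one and GAD1 did not. Of the 3 pluripotency genes only LIN28A had one (3.04), and POU5F1 and NANOG did not. Of 5 glial genes AQP4 (3.87) and MBP (3.58) had one, and GFAP, MOG and SOX10 did not. The blood genes PTPRC, CD3E and HBB had none.

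The RefSeq promoter table listed 11 starts for 7 of the 9 genes, and for NRXN2 and LRRTM4 both outer ends were used in place of starts. By this measure 7 of the 9 genes had an accessible start (77.8%, Wilson 95% interval 45.3 to 93.7%), the exceptions being NLGN2 and NLGN3. Of all protein-coding genes 68.4% had one, which lies inside that interval. Of the 11 listed starts 7 were accessible (Wilson 95% interval 35.4 to 84.8%), against 53.3% of all 35116 starts of the table. The shares for these genes are thus not distinguishable from the background at this number of genes.

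**Figure D1:**
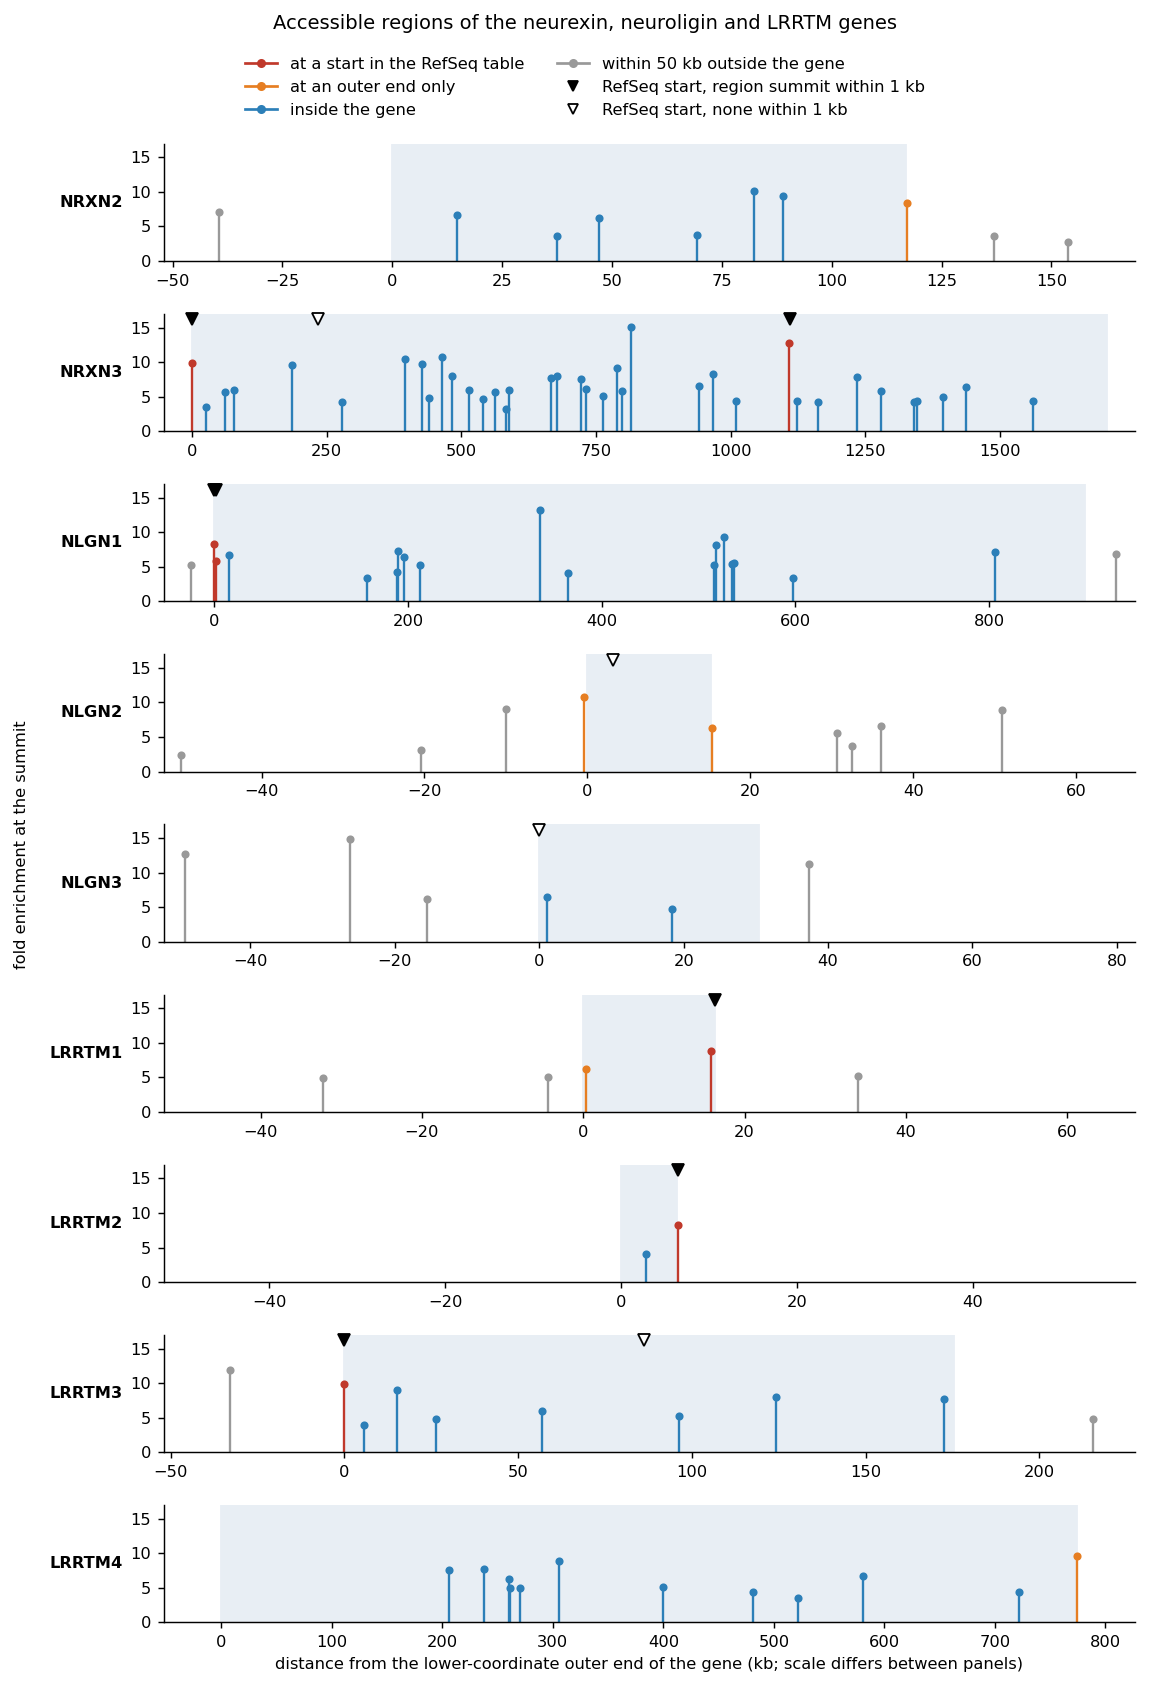
Each panel plots the accessible regions of 1 gene, with the distance of the summit from the lower-coordinate outer end in kb on the x axis and the fold enrichment on the y axis. The shaded band is the gene body, colours give the class of region, and triangles mark RefSeq starts. The outermost and the innermost NRXN3 starts carried a region, at 9.85 and 12.8, and the start between them did not.

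The 9 regions at starts, or at the outer ends of NRXN2 and LRRTM4, had a median fold enrichment of 8.84 and a median of 846 tags. The 13092 regions of the list at RefSeq starts had medians of 9.51 and 799 tags. By fold enrichment the 9 regions stood between percentile 23.3 (the inner NLGN1 start) and percentile 74.0 (the inner NRXN3 start) among those regions. They were therefore of ordinary strength among those start regions. By the highest start region of each gene, the median fold enrichment was 8.84 over the 7 genes with an accessible start. Over all protein-coding genes with an accessible start it was 10.7.

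Among the neurexins, NRXN3 (chr14:78170373-79868291, 1.70 Mb) showed an accessible region at 2 of its 3 listed starts. The region at the outermost start, chr14:78169804-78170857, had its summit 29 bp before the start, a fold enrichment of 9.85 and 402 tags (interval 364 to 443). The region at the inner start, chr14:79278598-79279995, had its summit 121 bp before that start, a fold enrichment of 12.8 and 1234 tags (interval 1166 to 1305). The inner start, placed like a promoter of the shorter neurexin form, was thus the stronger on both scales, and the tag intervals did not overlap. The RefSeq table does not name the transcripts that belong to each start.

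By tag count the inner region stood at percentile 71.5 among start regions and the outermost at percentile 26.0. The middle start, 233 kb inside the gene, had no summit within 1 kb, and the nearest was 44.9 kb away with a fold enrichment of 4.28. Among 379 protein-coding genes whose listed starts span at least 100 kb, 64.4% had 2 or more accessible starts, whatever the distance between the accessible ones.

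**Figure D2:**
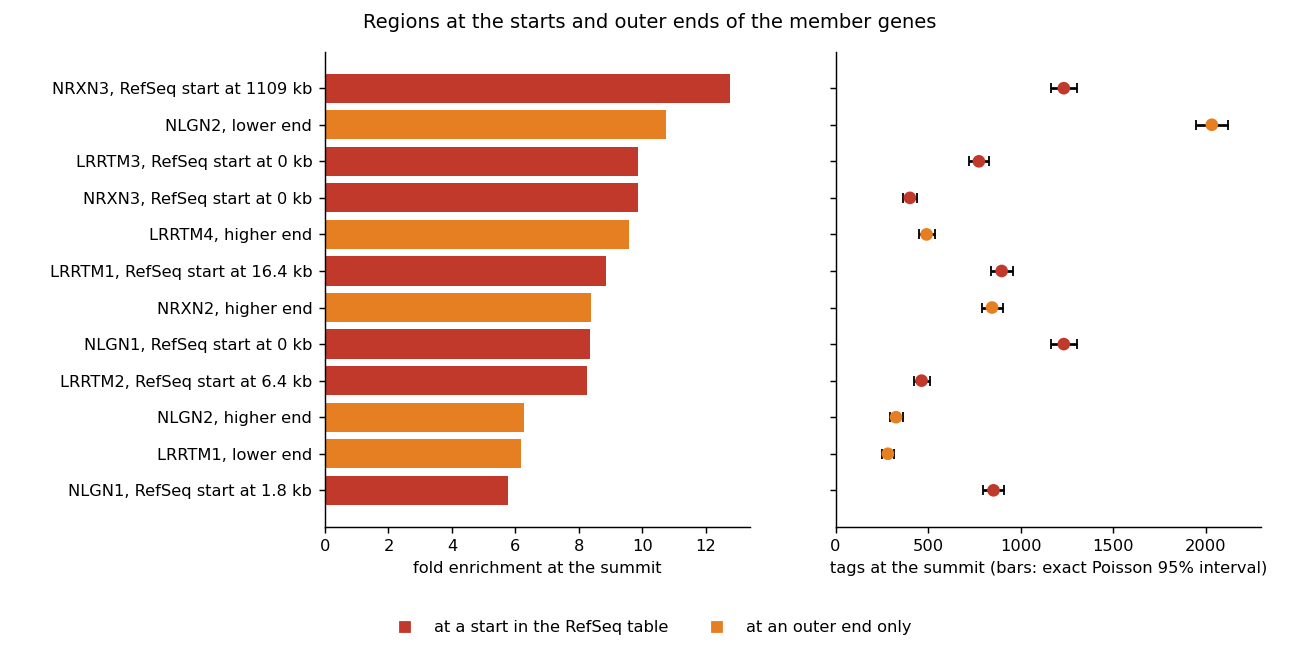
Bars show the fold enrichment and points the tag count with its exact Poisson 95% interval for the 12 regions within 1 kb of a start or outer end of the 9 genes; labels give the distance of the start from the lower-coordinate end. The inner NRXN3 start led by fold enrichment (12.8), and the lower end of NLGN2 led by tags (2034).

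Inside NRXN3 there were 36 regions over 1 kb from both outer ends, the inner start included, with fold enrichments from 3.15 to 15.1 and a median of 5.92. The highest of all 110 regions was among them, at chr14:78985453-78986347, 816 kb from the lower end and 293 kb from the inner start. It had a fold enrichment of 15.1, percentile 97.6 of all regions, and 1075 tags (interval 1012 to 1141). It had a single summit and lay at no RefSeq start. Its fold enrichment exceeded that of either accessible start of the gene, but it had fewer tags than the inner start (1234, interval 1166 to 1305). After it and the inner start came chr14:78633383-78634323, 464 kb inside, at 10.8 with 382 tags.

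The NRXN3 regions other than those at its starts were counted between the starts. Between the outermost and the middle start there were 4 regions in 233.3 kb, or 1.71 per 100 kb. Between the middle and the inner start there were 22 in 875.7 kb, or 2.51 per 100 kb, with a median fold enrichment of 6.31. Beyond the inner start there were 9 in 588.9 kb, or 1.53 per 100 kb, with a median of 4.40. The densities were not tested against each other. The last 137.9 kb of the gene held no region. No region of the list lay within 50 kb outside NRXN3, apart from the one across its start. The antisense genes inside NRXN3 touched few regions, with 1 at an end of NRXN3-AS2 (4.68) and 1 within NRXN3-AS3 (6.37).

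NRXN2 (chr11:64606174-64723197, 117 kb) was accessible at its higher-coordinate end only. That region, chr11:64723050-64723939, had its summit 62 bp outside the gene, a fold enrichment of 8.39 and 846 tags (interval 790 to 905). Exactly 1 accessible outer end was also seen at NRXN3, NLGN1, LRRTM2, LRRTM3 and LRRTM4, making 6 of 9 genes, against 61.4% of all protein-coding genes.

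Inside NRXN2 there were 6 regions. The highest, chr11:64687847-64689127, 82.4 kb from the lower end, had a fold enrichment of 10.2 and 710 tags, above the 8.39 of the outer end but with fewer tags. The next were chr11:64694494-64695538 at 9.44 with 507 tags and chr11:64619939-64621455 at 6.63 with 416 tags. A weaker region, chr11:64642761-64644259, held 5 summits and lay at the starts of the antisense gene NRXN2-AS1, 130 bp from the nearer one.

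That region had a fold enrichment of 3.67 and 236 tags (interval 207 to 268), percentile 7.84 by fold enrichment among start regions. Its reads cannot be assigned to NRXN2 or to NRXN2-AS1, since ATAC-seq carries no strand, and whether any internal NRXN2 region marks a shorter form was not tested. Outside the gene 3 regions lay in neighbouring genes, at 7.13 in SLC22A11, 3.60 in RASGRP2 and 2.76 at an end of PYGM.

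Among the neuroligins, NLGN1 (chr3:173395952-174294372, 898 kb) was accessible at both listed starts, which lie 1.79 kb apart. The outer one, chr3:173395110-173396173, had its summit 332 bp before the start, a fold enrichment of 8.34 and 1234 tags (interval 1166 to 1305). The inner one, chr3:173397368-173398436, had a fold enrichment of 5.77 and 854 tags (interval 798 to 913). Their local backgrounds, 147.2 and 147.1 tags, were the highest among the 12 regions at starts or ends except for the lower end of NLGN2 at 188.5, and their fold enrichments stood lower among start regions (percentiles 41.6 and 23.3) than their tag counts (percentiles 71.5 and 53.1).

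Inside NLGN1 there were 16 regions, the inner start included. The strongest, chr3:173732029-173732642, lay 336 kb inside the gene near an end of the non-coding gene LOC105374225, with a fold enrichment of 13.2 and 531 tags. Next came chr3:173921589-173922099 at 9.27 with 279 tags and chr3:173913473-173914726, within NLGN1-AS1, at 8.21 with 602 tags. The last of these belonged to a group of 5 regions between 516 and 537 kb, in and beside NLGN1-AS1. The longest stretch with no region ran over 208.8 kb, from 597.6 to 806.4 kb. Outside the gene there were 2 regions, at 5.33 (23.9 kb below) and 6.81 (32.0 kb above).

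NLGN2 (chr17:7404653-7419860, 15.2 kb) was the one gene with an accessible region at each outer end but none at its listed start. The start in the table lies 3.19 kb inside the lower end, and the nearest summit of any kind was 2784 bp from it with a fold enrichment of 1.47. The region at the lower end, chr17:7403543-7405160, had a fold enrichment of 10.7 and 2034 tags (interval 1947 to 2124), percentile 98.6 by tags and the highest tag count of the 110 regions. Its summit lay 473 bp outside NLGN2, but 83 bp from the start of TMEM256 and 49 bp from that of TMEM256-PLSCR3, which run in the opposite direction. The region therefore cannot be assigned to NLGN2 alone.

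At the higher end, chr17:7419646-7420522 had a fold enrichment of 6.28 and 327 tags, with its summit 321 bp from the start of SPEM1. NLGN2 held no internal region, like most genes of its length, whose median was 0. Its 50 kb flanks were crowded with other genes, and 7 further regions lay there, 4 of them at an end of another gene. The strongest were 9.09 at the PLSCR3 start, 8.87 in CHRNB1 and 6.60 at the FGF11 start. Accessible regions at both outer ends were also found for LRRTM1, making 2 of 9 genes, against 5.36% of all protein-coding genes; the NLGN2 regions were shared with neighbouring starts.

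NLGN3 (chrX:71144841-71175307, 30.5 kb) had no region at either outer end by the 1 kb measure, and the call rested on that limit. The nearest region, chrX:71145226-71146783, had its main summit 1077 bp inside the gene, with a fold enrichment of 6.47 and 439 tags (interval 399 to 482). A weaker summit of the same region lay 532 bp from the start, with a fold enrichment of 1.85 and 125 tags. With a limit of 2 kb, with any overlap, or with every summit counted, NLGN3 joined the accessible genes and the count became 8 of 9. The region also lies within the non-coding gene LOC124905197.

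A second region inside NLGN3, 18.3 kb from the start, had a fold enrichment of 4.70 and 141 tags. Of the 4 regions in its flanks 3 had higher fold enrichments and more tags than either region inside. They were the MED12 start at 14.9 with 591 tags, the FOXO4 start at 12.8 with 559 tags, and chrX:71181614-71183767 at 11.3 with 802 tags. The last lies 6.85 kb beyond the higher end of NLGN3, holds 6 summits and spans 2154 bp, the widest of the 110 regions. The remaining one, within MED12, stood at 6.19 with 186 tags, below the first internal region.

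LRRTM1, LRRTM2 and LRRTM3 each lie inside an alpha-catenin gene, CTNNA2, CTNNA1 and CTNNA3, which link cadherins to actin. All 17 regions of these LRRTM genes were therefore also inside the host gene. LRRTM1 (chr2:80288356-80304752, 16.4 kb, minus strand) was accessible at its start, with chr2:80303011-80304826 at a fold enrichment of 8.84 and 898 tags (interval 840 to 959). The summit lay 505 bp downstream of the start, so with a limit of 500 bp LRRTM1 lost its accessible start and the count became 6 of 9. The opposite end carried a weaker region, chr2:80288530-80289192, at 6.17 with 283 tags (interval 251 to 318). The start thus collected more tags than the other end, beyond the counting error. Of the 3 flanking regions, at 5.26, 5.11 and 4.86, the first lay at the start of the non-coding gene LOC107985904.

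LRRTM2 (chr5:138868921-138875335, 6.41 kb, minus strand) had the fewest regions of the 9 genes. Its start region, chr5:138875146-138875815, had the summit 35 bp before the start, a fold enrichment of 8.26 and 465 tags (interval 424 to 509). Listed starts of CTNNA1 on the plus strand lay 30 and 140 bp from the same summit, the nearer of them 65 bp upstream of the LRRTM2 start and pointing away from it. The region is therefore shared with the host gene. The other region, inside the gene, stood at 4.00 with 230 tags. No further summit lay within 50 kb, and the next were 115.3 kb below and 70.9 kb above the gene.

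The window before the LRRTM2 start was the only one of the 11 with a full cyclic AMP response element, TGACGTCA, the palindrome bound by CREB proteins. It is shown on the minus strand, chr5:138875368-138875397, with the element in capitals, 51 to 44 bases before the start.
LRRTM2 element: acgtcatccggTGACGTCAgcctatataca
This word stood in 1.85% of all 35116 windows. The match is a description of the sequence.

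LRRTM3 (chr10:66926036-67101551, 175.5 kb) was accessible at the outer of its 2 listed starts. The region chr10:66925527-66926580 had its summit 7 bp before the start, a fold enrichment of 9.86 and 775 tags (interval 721 to 832). The inner start, 86.2 kb inside, had no summit within 1 kb, and the nearest region was 10.0 kb away at 5.30. Of 7 internal regions the strongest were chr10:66940685-66942036 at 9.06, chr10:67049875-67050969 at 8.06 and chr10:67098277-67099041 at 7.71. The strongest of all the LRRTM3 regions lay outside the gene, 32.9 kb below it at chr10:66892581-66893807, near an end of the non-coding gene LOC101928961, at 11.9 with 663 tags. The flank on the other side held 1 region at 4.86.

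LRRTM4 (chr2:76747685-77522376, 774.7 kb) is the one LRRTM gene with no host gene. It was accessible at its higher-coordinate end, where chr2:77521041-77522526 had its summit 26 bp inside the gene, 5 summits, a fold enrichment of 9.57 and 492 tags (interval 449 to 537). Its 11 internal regions were weaker, from 3.51 to 8.90. The strongest were chr2:77052491-77053201 at 8.90, chr2:76985287-76986025 at 7.71, 499 bp from the start of LRRTM4-AS1, and chr2:76953383-76954200 at 7.61. The first 206.3 kb from the lower end held none, and there was none within 50 kb outside the gene.

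The number of internal regions was set beside that of other protein-coding genes within 20% of the same length. NRXN2 held 6, against a median of 2 in 1345 genes (percentile 94.1), and NRXN3 held 36, against 22 in 19 genes (percentile 89.5). LRRTM3 held 7, against 3 in 918 genes (percentile 85.8). NLGN1 held 16, against 15 in 97 genes (percentile 57.7), and LRRTM4 held 11, against 15 in 123 genes (percentile 32.1). NRXN2, NRXN3 and LRRTM3 therefore stood in the upper part of their length classes, and the long NLGN1 and LRRTM4 did not. The LRRTM3 regions also lie inside CTNNA3, and the NRXN2 count includes the region at the NRXN2-AS1 starts. The NRXN3 rank rests on 19 genes. Among the short genes NLGN3 held 2 and LRRTM2 held 1, against medians of 0 (percentiles 91.0 and 93.5), while NLGN2 and LRRTM1 held none. The NLGN3 count includes the region 1077 bp from its start, and with a window of 2 kb NLGN3 held 1. All these percentiles are ranks within 1 pooled list, with no error between replicates.

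**Figure D3:**
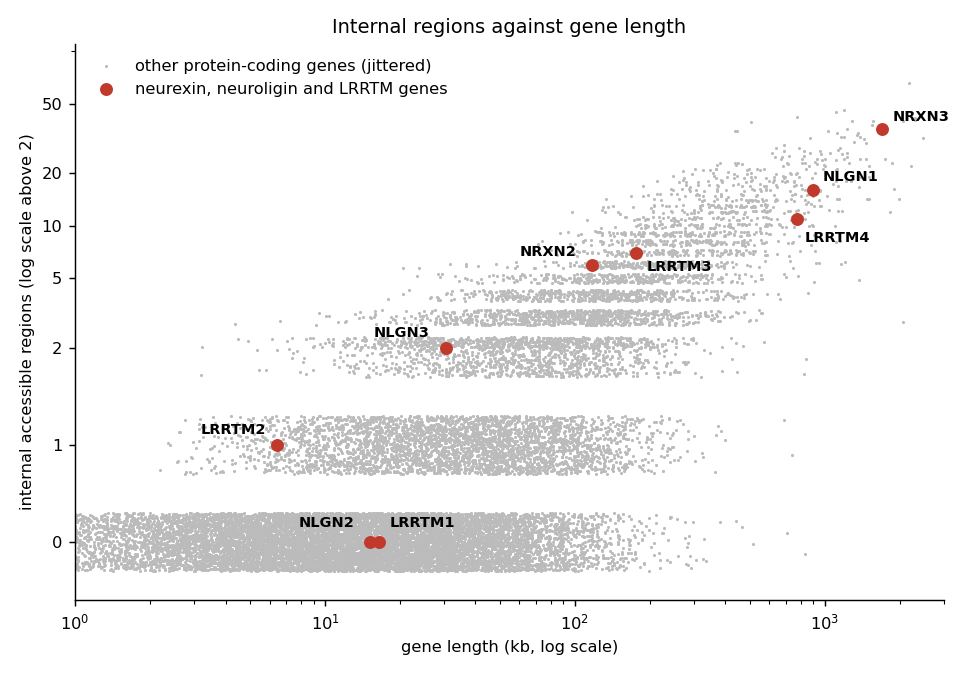
The plot sets the number of internal accessible regions (y axis, log scale above 2) against gene length in kb (x axis, log scale) for the 9 genes in red and other protein-coding genes of at least 1 kb in grey, jittered vertically. NRXN3 had 36 internal regions, NLGN1 had 16 and LRRTM4 had 11.

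Across the 110 regions, 7 lay at a listed start, 5 at an outer end only, 77 elsewhere inside a gene and 21 in the flanks. The 12 regions at starts or outer ends had a median fold enrichment of 8.62, a median of 810.5 tags and a median width of 1059 bp. The 77 internal regions had medians of 5.91, 204 tags and 739 bp. In the whole list, regions away from starts had medians of 5.16, 205 tags and 802 bp. The internal regions were thus weaker and narrower than those at starts, and close in tags to other regions away from starts. The local background was at the lowest value of the list, 29.2 tags, in 21 of the 77 internal regions (27.3%) and in none of the 12. In the whole list 19.6% of regions were at that value.

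The rule's limit of 50 kb took in a region 49.9 kb below NLGN2, at 2.46, and one 49.0 kb below NLGN3, the FOXO4 start at 12.8. The nearest regions left out lay 52.5 kb below NRXN2, at 4.47, 52.6 kb below NLGN2, at 5.30, and 54.6 kb above NRXN2, at 2.67.

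Base composition differed widely among the 11 listed starts. The CpG ratio, the observed number of CpG dinucleotides over that expected from the C and G content, was computed in the window from 250 bases before to 50 after each start. In the table as a whole its median was 0.824 in accessible starts and 0.240 in the others. The inner NRXN3 start had a ratio of 0.892 and the NLGN1 starts had 0.660 and 0.820, all accessible. LRRTM1 (0.684) and LRRTM2 (0.647) were accessible too.

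The closed starts of NLGN2 (0.072), LRRTM3 (0.159) and NRXN3 (0.314) were CpG-poor, whereas that of NLGN3, missed by the 1 kb limit, had 0.711. Both outermost starts of NRXN3 (0.206) and LRRTM3 (0.294) were accessible although CpG-poor. Of all starts with a ratio below 0.25, which held the NRXN3 one, 11.2% were accessible, and of those from 0.25 to below 0.5, which held the LRRTM3 one, 26.3% were. For starts from 0.75 to below 1 the share was 89.6%. A CpG-poor window thus accompanied both accessible and closed starts within these genes.

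**Figure D4:**
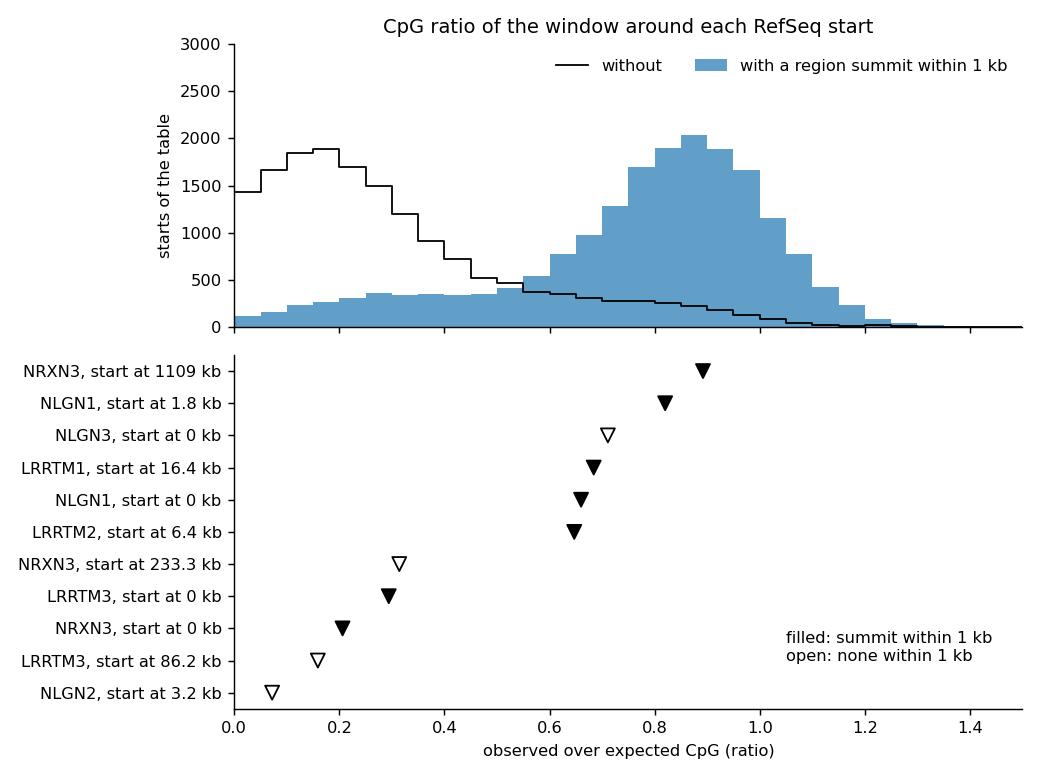
The upper panel counts all RefSeq starts by the CpG ratio of their window (x axis, ratio without unit), split by whether a region summit lay within 1 kb. The lower panel marks the 11 starts of the 7 genes with listed starts; the accessible outermost starts of NRXN3 (0.206) and LRRTM3 (0.294) sit among the low ratios.

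Short words were searched on both strands of the same windows. The GC box GGGCGG stood in 4 of the 11 windows, those of the NLGN1 starts and the middle and inner NRXN3 starts, and in 44.95% of all windows. The CCAAT box stood in 3, against 34.6%, and the TATA-box word TATAAA in 1, LRRTM2, against 11.5%. There it lay on the strand opposite to the gene, 102 to 97 bases before the start, and its use was not tested. The E-box CANNTG stood in 8, against 68.7%. Its form CAGATG, a word known for proneural factors such as NGN2 and counted among the E-boxes as well, stood in 3, against 14.7%. Those 3 windows belong to the inner NLGN1 start and to the closed starts of NLGN2 and NRXN3.

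The other genes of the pathway were a list of 55, comprising ligands of neurexins, other synaptic adhesion systems, intracellular scaffolds and a small group of further partners. Both outer ends were used for the 14 of them with no listed start. An accessible start was found for 50 of the 55 (90.9%, Wilson 95% interval 80.4 to 96.0%), against 68.4% of all protein-coding genes. The highest start region of each had a median fold enrichment of 6.90, against 10.7 over all protein-coding genes with an accessible start and 8.84 over the 7 genes described above. With only regions above the list's median fold enrichment the count fell from 50 to 31. The share of all protein-coding genes at that limit is not given here, so the 31 cannot be set against the 68.4%.

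The genes were sorted into roles after seeing the data, so the counts per role are a description. No difference between roles was tested, and 68.4% of all protein-coding genes had an accessible start. Among the cerebellins, neurexophilins, calsyntenins, dystroglycan and IGSF21, all ligands of neurexins, 9 of 12 genes had an accessible start. The cerebellin CBLN4, the neurexophilin NXPH4 and IGSF21, a partner of neurexin 2, had none. All 21 genes of other adhesion systems had one. So did the secreted C1QL2 and C1QL3, and MDGA1 and MDGA2, which bind neuroligins. Of 16 scaffold genes 14 had one, and SHANK3 and DLGAP1, both of the postsynaptic density, had none, although DLGAP1 held 27 internal regions. The highest start regions were those of DLG2 (15.95), a scaffold of the PSD-95 family, PTPRD (14.5), a presynaptic receptor phosphatase, and DLG4 (12), the gene for PSD-95. The lowest were FLRT1 (2.81), SLITRK3 (3.08) and ADGRL1 (3.10), the last called by 1 of its 2 outer ends.

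**Figure D5:**
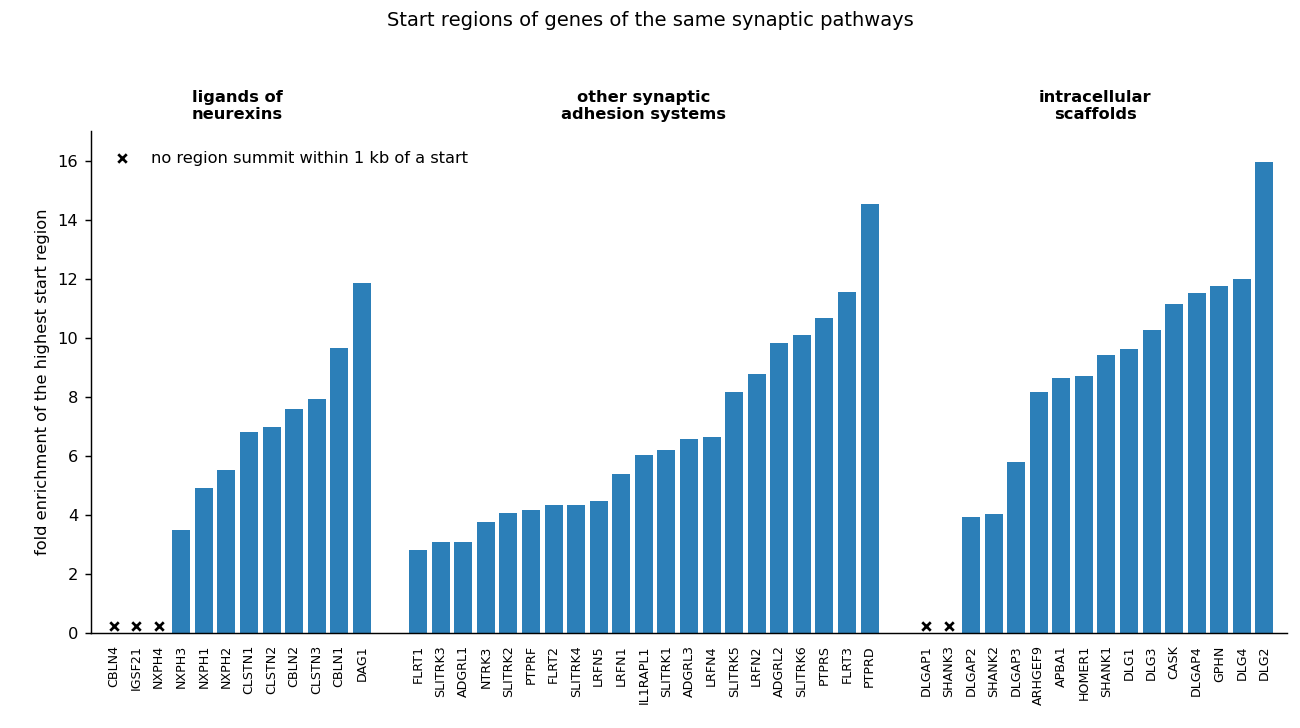
Bars show the fold enrichment (y axis, ratio without unit) of the highest start region of each ligand, other adhesion gene and scaffold gene of the pathway list, ordered within each group. Crosses mark the 5 genes with no region summit within 1 kb of a start, or of an outer end for genes with no listed start. DLG2 was highest at 15.95, and FLRT1 lowest at 2.81.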

How the data were processed

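ATAC-seq was measured in 3 replicates of 1 group, and the authors pooled them into 1 list, named in the labels as the optimal set by irreproducible discovery rate. The aligner, the peak caller and its filters are not given in the sources used here. The genome build is hg38, per the submitters' processing notes. The authors deposited a linear fold ratio, −log10 p and −log10 q values and a score from 540 to 1000 for each summit, with scaling of the score not given. Summits that shared an interval were treated as 1 region, which took the values of the summit of highest −log10 p; the q values were not used.

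Tag counts were recovered here as the whole number for which the Poisson upper tail gave the deposited −log10 p, with a pseudocount of 1 in the fold ratio; the largest error was 0.00079 over 145092 entries. Gene bodies, starts and sequences came from RefSeq GRCh38.p14, in which all 9 genes matched and 7 had listed starts. Exons were not used here. Starts and ends were given a window of 1 kb. Genes and regions were named by a rule: all 9 genes, every region at an end, the 3 strongest internal and flanking regions of each gene, all markers, and the extremes of the pathway list. The genes and lists were chosen with earlier results of these data known, and the pathway genes were sorted into roles after seeing the data. Shares have Wilson intervals and no test was run. Alternatives changed the score minimum, the fold minimum, the windows, the overlap rule and the use of summits; outer ends in place of starts was added after seeing the data. The recovery and the counting were tested on simulated data. Python 3.11.15, numpy 2.4.6, scipy 1.17.1 and pandas 2.3.3 were used.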

Additional observations from a re-analysis of the deposited data

How the results depend on the processing

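The count of genes with an accessible start was 7 and ranged from 6 (window of 500 bp) to 8 over the alternatives. Of 34 recomputed main values, 28 stayed within the limits set, 1.5 times for counts and 8.25 to 9.46, the counting error, for the median fold enrichment. With only regions above the median fold enrichment, the regions of the 9 genes numbered 66 in place of 110 and the internal regions 45 in place of 79. The pathway genes with an accessible start numbered 31 in place of 50, with no share of all genes given at that limit. With every summit counted, the regions and the internal regions of the 9 genes numbered 232 and 160. The median fold enrichment at starts then became 4.81 in place of 8.84, because the weaker summits of each region enter. Of 117 recomputed counts for single genes, 41 moved by over 1.5 times. No paired analysis was possible because there is 1 group and 1 pooled list with no values of single replicates, so that leaving out a replicate could not be run either. The unknown depth of each replicate limits every value.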
